A study of Homo sapiens with 8 samples.

Results

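ASNS, the gene for asparagine synthetase, was examined in 8 lists of ATF4 binding peaks, 1 per library, from Nalm6 and SUPB15, both cell lines of acute lymphoblastic leukaemia. Its peaks were taken as those overlapping a window of 30.0 kb on chromosome 7 from 97480000 to 97510000 (hg19), with the gene on the minus strand and its transcription start near position 97501850. The window held 7 of the 312662 listed peaks, 6 of them at the promoter and 1 about 20 kb further into the gene. The 4 groups were Nalm6 with L-asparaginase, untreated Nalm6, SUPB15 with L-asparaginase and untreated SUPB15, with 2 libraries in each. Treated cells received 1 IU/ml of L-asparaginase, an enzyme drug that breaks down asparagine, for 2 h, and untreated cells received none. All libraries came from chromatin immunoprecipitation, with 5 ug of a rabbit monoclonal antibody against ATF4, and sequencing. The comparison asks whether ATF4 sat at ASNS with and without the drug, and whether it did so in both lines. Each group is 1 cell line in culture. The design text calls the Nalm6 experiments independent and counts more of them than the 2 per condition analysed here. It does not say this of SUPB15, so p-values there measure the spread between these libraries, which may be technical. The files are peak lists, so the cell type could not be checked against marker expression.

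Asparagine synthetase makes asparagine from aspartate, with glutamine as the source of nitrogen. When amino acids run short, the kinase GCN2 senses uncharged transfer RNA, general translation falls, and translation of the transcription factor ATF4 rises. ATF4, paired with C/EBP proteins, binds a composite element in the ASNS promoter, known as the C/EBP-ATF response element or first nutrient sensing response element, which lies close to a second nutrient sensing element. Many leukaemia cells make little asparagine synthetase and depend on asparagine from outside, which is the basis of treatment with L-asparaginase.

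The bases before the ASNS transcription start are shown because they hold both nutrient sensing elements. RefSeq gives 2 ASNS starts in its GRCh38.p14 promoter table, 243 bases apart, and the sequence is that of the 250 bases before the start further upstream, chr7:97872409-97872658 on the minus strand. Capitals mark the core of the C/EBP-ATF response element and the second nutrient sensing response element.
ASNS promoter: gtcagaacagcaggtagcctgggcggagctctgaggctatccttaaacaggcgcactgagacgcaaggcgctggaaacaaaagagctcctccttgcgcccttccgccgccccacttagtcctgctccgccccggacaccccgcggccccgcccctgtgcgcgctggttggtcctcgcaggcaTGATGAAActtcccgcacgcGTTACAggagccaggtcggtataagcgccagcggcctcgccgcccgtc

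Motifs were searched on both strands of the 300 bases from 250 before to 50 after each start. The core TGATGNAA occurred once, as TGATGAAA, from 68 to 61 bases before the start. The element GTTACA followed from 48 to 43 bases before it, with 12 bases between them. No searched motif overlapped these 2 elements. Over the 35116 promoters of the same length in the table, 3.62% held TGATGNAA, 6.66% held GTTACA and 0.498% held both. The GC box GGGCGG was present 5 times at this start and in 45.0% of all promoters. The palindrome TGACGTCA of the cyclic AMP response element, present in 1.85% of promoters, was not found in these letters. The second ASNS start held 2 overlapping GGGCGG matches and none of the other motifs. These positions are in another build than the peaks and were not converted, so the distance between a summit and an element is not given.

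All 4 Nalm6 libraries had a broad peak across the ASNS start. In the libraries with asparaginase it ran from 97501140 to 97502132 and from 97501083 to 97502155, and in the untreated libraries from 97501176 to 97502026 and from 97501139 to 97502010. The Nalm6 peaks were 993 and 1073 bp wide with asparaginase and 851 and 872 bp wide without. Their summits lay close together, 148 and 125 bp into the gene from the stated start with asparaginase and 110 and 120 bp without. Any 2 Nalm6 summits were 5 to 38 bp apart.

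In SUPB15 the promoter was listed with asparaginase and not without it. The peaks of the libraries with asparaginase were short, from 97501522 to 97501914 in replicate 1 and from 97501378 to 97501639 in replicate 2. Their summits lay 79 and 316 bp into the gene and were 237 bp apart, and the 2 peaks shared 118 bp. The peak of replicate 2 ended 211 bp short of the stated start. Neither untreated SUPB15 list held a peak anywhere in the window.

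**Figure D1:**
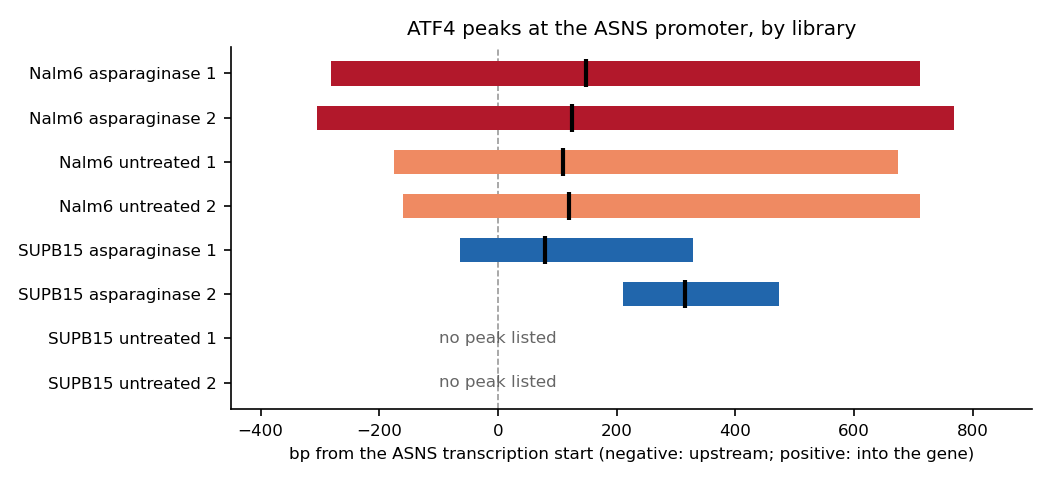
Extent of the ATF4 peak at the ASNS promoter in each library, in bp from the stated transcription start, with the summit as a black mark. The 4 Nalm6 peaks share nearly the same summit, the 2 SUPB15 peaks with asparaginase are short and 237 bp apart at their summits, and untreated SUPB15 has no listed peak.

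The 7th peak of the window was in SUPB15 with asparaginase, replicate 1, from 97481601 to 97481823, with its summit 20176 bp into the gene from the start. Its fold enrichment was 3.85, with −log10 q of 4.99, and no other list held a peak there. Apart from it, the promoter peak stood alone. In all 8 lists another peak within 100 kb of the start lay 99.3 to 99.7 kb upstream.

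Peak strength is given on 3 scales. The fold enrichment is the authors' value from the peak caller, MACS2, and compares fragments at the summit with a local background. The summit pileup is the number of fragments stacked at the summit, solved from the deposited fold enrichment and −log10 p. The relative pileup is the pileup plus 1 divided by the genome background, taken as the lowest local background in that list, which stands in for depth. That background was 2.21 to 2.97 fragments in Nalm6 and 3.90 to 4.19 in SUPB15. The lists held 34825 to 48984 peaks in Nalm6, 88302 and 41213 in SUPB15 with asparaginase and 9575 and 9586 in untreated SUPB15.

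The ASNS promoter was among the strongest ATF4 sites of Nalm6 in every library. With asparaginase 377 and 381 fragments were piled up at the summit, against 265 and 294 without. Relative pileup was 171 and 164 with asparaginase, against 89.5 and 106 in untreated cells. Both libraries with asparaginase were above both untreated ones, with means of 168 ± 5.17 and 97.6 ± 11.5 (SD, n = 2 each). The ratio was 1.72 between geometric means (two-sided exact permutation test, p = 0.333, which is the lowest p that 2 libraries against 2 can give).

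Fold enrichment over local background went the other way. It was 16.3 and 15.3 with asparaginase, against 19.2 and 20.5 in untreated Nalm6, a ratio of 0.795, again with no overlap between the groups (exact two-sided permutation test, p = 0.333). The local background itself differed. It was 10.1 and 10.3 times the genome background with asparaginase, against 4.32 and 4.80 times without, a ratio of 2.23. Its steps of 0.02 would be those of a window of 10.0 kb and fragments of 200 bp, both inferred from the values and not stated in the sources. On that inference the window around the ASNS summit held 1112 and 1199 fragments with asparaginase and 642 and 670 without. Such a window takes in the peak itself. The peak caller's −log10 p was 312 and 305 with asparaginase, against 242 and 275 without.

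**Figure D2:**
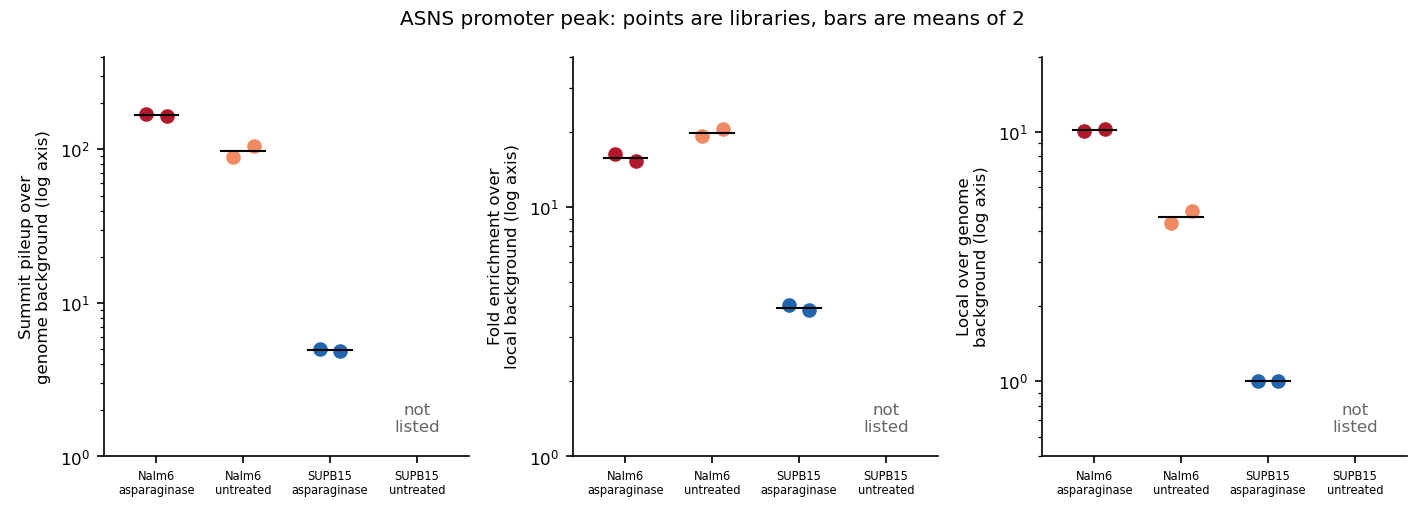
Relative summit pileup, fold enrichment over local background and local over genome background of the ASNS promoter peak, on log axes, with 1 point per library and a bar at the mean of 2. With asparaginase the Nalm6 pileup is higher (171 and 164 against 89.5 and 106) and the fold enrichment lower (16.3 and 15.3 against 19.2 and 20.5), and SUPB15 with asparaginase lies at 5.01 and 4.84 times genome background.

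The pileup at ASNS in Nalm6 with asparaginase came close to the highest value found anywhere in the lists. No peak of any library exceeded 400 fragments, and 3 lists reached that value. With fragments of 200 bp, 400 is the highest pileup possible if each position and strand is counted once. The sources used here do not say how duplicate reads were treated. The ASNS summits stood at 94.2% and 95.2% of 400 with asparaginase, leaving little room below that limit, against 66.2% and 73.5% in untreated Nalm6. On the assumption of a limit of 400 with random positions, the corrected relative numbers of fragments were 517 and 523 with asparaginase and 146 and 190 without, a ratio of 3.12. This correction was chosen after the values had been seen.

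Set against all 25213 regions with a peak in all 4 Nalm6 libraries, relative pileup at ASNS rose beyond the median change. Relative to that median the change was 0.42 on the log2 scale (SE 0.16), or 1.34-fold (limma, adjusted p = 0.0338). In the same fit 5717 regions (22.7%) were called higher and 2179 (8.64%) lower with asparaginase, so a call in this direction was common. A larger change was found at 26.1% of the regions, and ASNS ranked 6593 by its change. The median change of all regions, which was subtracted, was 0.37 on the log2 scale. Without subtracting it the ASNS change was 0.78 (limma, adjusted p = 8.39e-06), and 9762 regions were called higher and 100 lower. With each library centred on its own median 5842 were called higher and 4731 lower, and after quantile normalization 4665 and 4742.

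With the saturation correction the change relative to the median was 1.27, or 2.42-fold (limma, adjusted p = 8.94e-05), and 10.6% of the regions had a larger one. The call at ASNS did not hold in every setting. After quantile normalization the change was 0.09 (limma, adjusted p = 0.157), and without a trend of spread with mean it was 0.42 (limma, adjusted p = 0.129). It was lost without asparaginase replicate 1 (change 0.35, limma adjusted p = 0.618) and without asparaginase replicate 2 (change 0.49, limma adjusted p = 0.441), where a single treated library is assumed to vary as the untreated ones do. By fold enrichment over local background the change was -0.47 (SE 0.08; limma, adjusted p = 0.000738), in the direction called at 1027 regions (4.07%), against 3825 regions (15.2%) called higher.

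How ASNS compared with regions as strong before treatment depended on the measure. In untreated Nalm6, 81 other regions had a relative pileup at or above that of ASNS in the lower of both libraries. Their changes relative to the median ran from -0.45 to 0.47 on the log2 scale, with a median of 0.17, and 3 of the 81 exceeded the change at ASNS. Of the 81, 8 were called higher and 1 lower in the same fit (limma, adjusted p under 0.05). Over all regions of that fit 22.7% were called higher and 8.64% lower. By fold enrichment 6 other regions stood at or above ASNS, and all 6 had a change above that of ASNS, with a median of -0.14 against -0.47. Their changes ran from -0.25 to -0.04, so all 6 also lay below the median change. Of the 6, 0 were called higher and 2 lower (limma, adjusted p under 0.05). By this measure 15.2% of all regions were called higher and 4.07% lower. These regions were picked by their untreated level, so the counts are partly fixed by the choice and are a description with no test. Under a limit of 400 fragments a region with a higher untreated pileup would have less room to rise. Whether this bears on these regions was not tested.

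**Figure D3:**
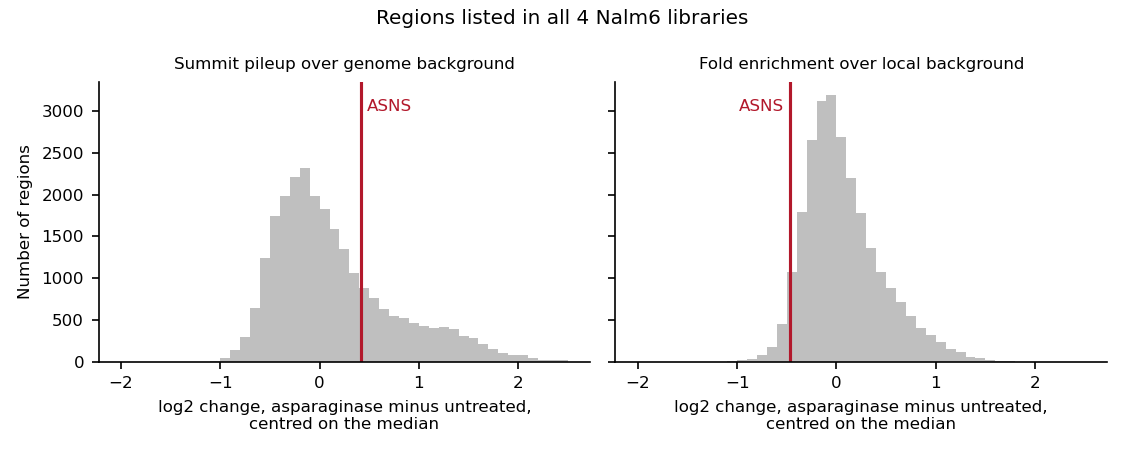
Number of regions by log2 change, asparaginase minus untreated, centred on the median, for the 25213 regions with a peak in all 4 Nalm6 libraries, with ASNS as a red line. ASNS lies at 0.42 by summit pileup over genome background (left) and at -0.47 by fold enrichment over local background (right).

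Within the lists the rank of ASNS depended on the measure. By fold enrichment it was 356 of 43376 and 619 of 48984 peaks with asparaginase, and 8 in both untreated lists, of 34825 and 36801. By −log10 p it was 3 and 7 with asparaginase, and 24 and 10 without. By summit pileup the ranks were 45 and 60 with asparaginase, against 78 and 75 in untreated Nalm6. Lists differ in length and in their strong peaks, so these ranks place the peak within its own list and show no change between lists. In the SUPB15 lists with asparaginase the promoter peak ranked 20811 of 88302 and 15499 of 41213 by fold enrichment, in the upper 23.6% and 37.6%.

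**Figure D4:**
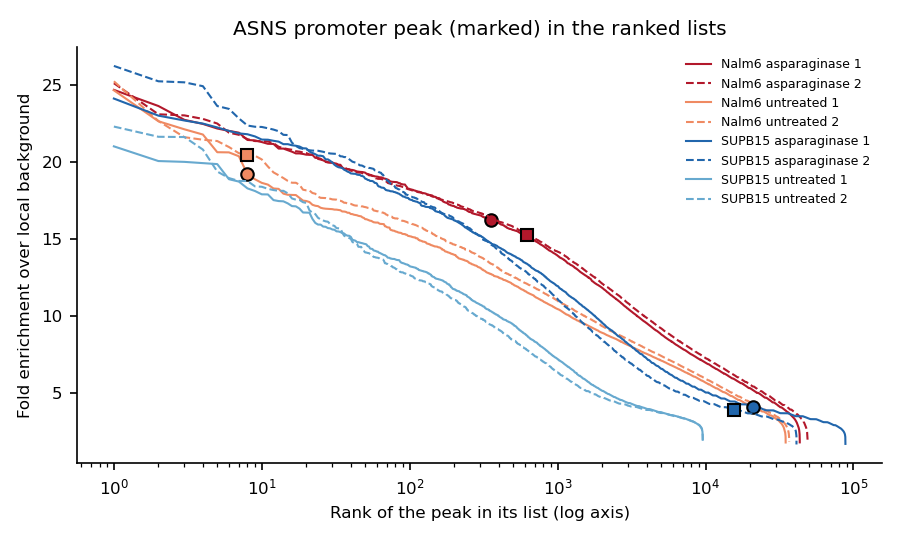
Fold enrichment over local background against rank (log axis) for all peaks of each list, with the ASNS promoter peak marked on 6 of the 8 curves (circle, replicate 1; square, replicate 2). ASNS stands at rank 356 and 619 in Nalm6 with asparaginase, at rank 8 in both untreated Nalm6 lists, and at 20811 and 15499 in SUPB15 with asparaginase.

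In SUPB15 the ASNS peak was listed with asparaginase at a far lower pileup than in Nalm6. The lists with asparaginase reached down to 12 fragments at genome background and to a −log10 q of 1.32 in both libraries. With asparaginase 20 and 18 fragments were piled up, with exact 95% Poisson intervals of 12.2 to 30.9 and 10.7 to 28.4 that cover counting error only. Relative pileup was 5.01 and 4.84, fold enrichment 4.05 and 3.86, and −log10 q 5.62 and 4.45. The local background equalled the genome background in both libraries. In untreated SUPB15 no value was listed. Those lists held peaks at genome background from a relative pileup of 3.68 and 3.59 upwards, and from a −log10 p of 4.46 and 4.16, where the ASNS peaks with asparaginase had 8.37 and 7.41. A higher local background raises the limit, so the absence of a peak is not a level of 0, and no fold change or test is given for SUPB15.

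By presence alone ASNS was gained in SUPB15, since its region was listed in both libraries with asparaginase and in no untreated one. This class took in 17239 of 102989 regions (16.7%). By the lower of both fold enrichments ASNS ranked 5615 among the gained regions, whose median was 3.50. The class did not hold under stricter terms. With −log10 q of at least 5 the promoter was listed in 1 asparaginase library, and with at least 10 in 0. Summits within 200 bp or reciprocal overlap by 50% left 1 library in the region. The untreated lists were shorter, and both ASNS ranks with asparaginase lie beyond the 9575 peaks of the shortest list, so with equally long lists of strongest peaks ASNS was in 0 SUPB15 lists.

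By relative pileup ASNS had the highest excess of Nalm6 over SUPB15 among the regions listed in all 4 asparaginase libraries. This comparison was chosen after the values had been seen. Relative pileup with asparaginase was 171 and 164 in Nalm6 against 5.01 and 4.84 in SUPB15, with means of 168 ± 5.17 and 4.92 ± 0.122 (SD, n = 2 each). Of 13473 regions with a peak in all 4 asparaginase lists, ASNS had the highest difference of Nalm6 minus SUPB15. Regions listed in Nalm6 but missing from a SUPB15 list had no value and were not ranked, and larger differences may lie among them. Relative to the median difference of 1.15 on the log2 scale the ASNS difference was 3.94 (SE 0.32), or 15.3-fold (limma, adjusted p = 3.98e-31), and without subtracting that median it was 5.09, or 34.0-fold. With each library centred on its own median it was 3.90 (limma, adjusted p = 6.40e-09), and after quantile normalization 4.29 (limma, adjusted p = 4.83e-06). The limma fit shares its estimate of spread across regions, so these p-values do not measure the spread at ASNS alone. The lines were separate sets of libraries, and an effect of the set cannot be told apart from the line. The Nalm6 values stand close to the limit of 400 fragments, and with the saturation correction the difference relative to the median was 5.56, or 47.3-fold (limma, adjusted p = 3.33e-41). In the median-centred fit without that correction 2050 regions (15.2%) were called higher and 3013 (22.4%) lower in Nalm6. Without subtracting the median 10232 were called higher and 451 lower. ASNS kept the highest difference without any 1 of the 4 libraries, with values of 3.81 to 4.05. By fold enrichment over local background the difference was 1.46 (limma, adjusted p = 9.43e-05), and ASNS ranked 31. With −log10 q of at least 5 or 10 the region no longer had a peak in all 4 lists and gave no value.

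**Figure D5:**
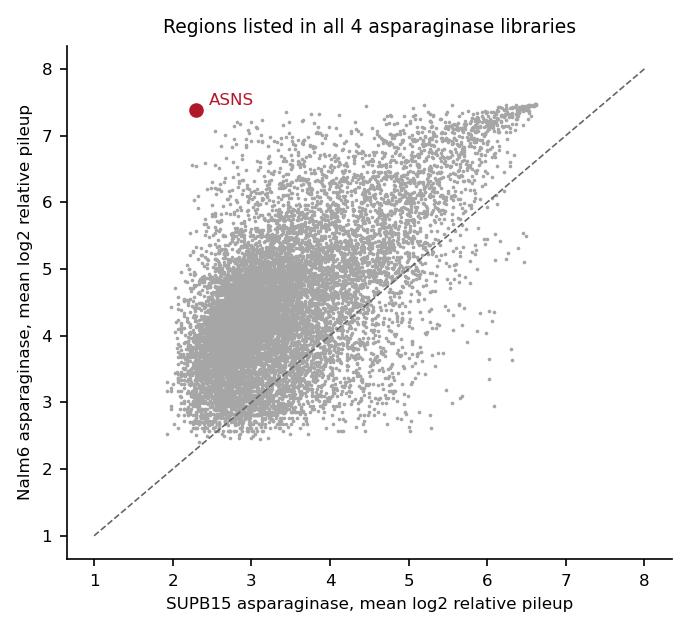
Mean log2 relative pileup of Nalm6 with asparaginase against SUPB15 with asparaginase for the 13473 regions with a peak in all 4 asparaginase lists, each point a region and the dashed line equality. ASNS, in red, lies in the upper left corner, at 168 times genome background in Nalm6 and 4.92 times in SUPB15 on average.

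Neighbouring sites that were listed in both lines differed less between them. The nearest region that all 8 lists held was on chromosome 7 from 97600752 to 97601911, 98.9 kb upstream of the ASNS start. Its relative pileup was 46.6 and 46.3 in Nalm6 with asparaginase, against 22.6 and 19.7 in untreated Nalm6. In SUPB15 it was 21.2 and 12.5 with asparaginase, against 6.37 and 6.67 without. SUPB15 was listed there in both conditions, and no test is given for this site. Within 1 Mb of ASNS, 6 other regions had a peak in all 4 asparaginase lists. Their differences of Nalm6 minus SUPB15 relative to the median ran from -0.84 to 1.42 on the log2 scale, with a median of -0.08, against 3.94 at ASNS. Sites missing from any of these 4 lists were not compared. Outside the promoter, the Nalm6 lists with asparaginase held 23 and 24 peaks within 1 Mb, and those of SUPB15 held 29 and 11.

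Most regions at or above ASNS in Nalm6 were listed in SUPB15 as well. Over the 8 lists, 3812 of all 132657 regions had a peak in every list. The share listed in SUPB15 among all Nalm6 regions was not computed, so the counts below have no such share beside them. Of the 81 other regions at or above ASNS in untreated Nalm6 by relative pileup, 76 were listed by both untreated SUPB15 libraries and 3 by neither. With asparaginase 79 of the 81 were in both SUPB15 lists, where the median of the lower relative pileup was 74.4, against 4.84 at ASNS. In Nalm6 with asparaginase 60 other regions stood at or above ASNS, and all 60 were in all 4 SUPB15 lists. By fold enrichment, where ASNS ranked lower in those lists, 453 other regions stood at or above it. Of these 453, 304 were in both untreated SUPB15 lists and 102 in neither. With asparaginase 405 of the 453 were in both SUPB15 lists, and 28 were in no SUPB15 list. In untreated Nalm6, 6 other regions stood at or above ASNS by fold enrichment. Of these 6, 5 were in both untreated SUPB15 lists and 1 was in no SUPB15 list. These regions were picked by their Nalm6 level, and the counts carry no test.

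ASNS shared its pattern of listing, in all 6 lists other than those of untreated SUPB15, with 3871 of 132657 regions (2.92%) over the 8 lists. Among these 3871 it ranked 1 in Nalm6 with asparaginase and 2 in untreated Nalm6 by the lower relative pileup, where the medians were 18.1 and 12.5. In SUPB15 with asparaginase it ranked 3454, below the median of 6.62. The 5 regions of that pattern with the profile most like ASNS were those at the smallest Euclidean distance over the 6 log2 relative pileups. The closest lay on chromosome 2 from 173321983 to 173322957, at a distance of 1.04. Its relative pileup was 146 and 148 in Nalm6 with asparaginase and 83.5 and 95.4 in untreated Nalm6, and 8.11 and 7.89 in SUPB15 with asparaginase. The others were chr19:966460-967309, chr11:64794662-64795590, chr9:131682633-131684075 and chr6:150738638-150740044, at distances of 1.59 to 1.78. These others each differed from ASNS in a part of the profile. In Nalm6 the chromosome 11 region had 73.8 and 84.5 with asparaginase and 84.1 and 85.3 without. In untreated Nalm6 the chromosome 19 region had 46.1 and 58.1 and the chromosome 6 region 42.7 and 50.6, against 89.5 and 106 at ASNS. In SUPB15 with asparaginase the chromosome 9 region had 13.1 and 9.42, against 5.01 and 4.84 at ASNS.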

How the data were processed

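ATF4 peak lists, 1 per library, were analysed for 8 libraries, whose titles give line, treatment and replicate. BWA, MACS2, DiffBind and build hg19 are named in the submitters' processing notes; their versions and settings are not stated in the sources used here. The deposited lists give for each peak the fold enrichment (a ratio), −log10 p and −log10 q at the summit, as computed by the authors' peak caller, and a summit offset as an other value. Members and lists were chosen with earlier results of these data known. No hg19 annotation was used, so the planned list of other amino acid synthesis genes was not described.

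In MACS2 the fold is (pileup + 1) / (background + 1) and p is a Poisson tail, so that each pair was solved for pileup and local background. This succeeded for 100% of peaks (tolerance 0.001 in −log10 p). Each list's lowest background served as genome background, and higher ones were multiples of 0.02 (tolerance 0.0005). Read totals are not in the lists, so depth is known only relatively.

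Peaks sharing at least 1 bp were merged into regions. Log2 relative pileups (pseudocount 1) of regions listed in every library were centred on the median change and fitted with limma 3.58.1 in R 4.3.3 (trend, Benjamini-Hochberg adjustment over all regions at 0.05). Single values were compared by exact permutation tests. In simulated data limma recovered 51% of 2-fold and 100% of 4-fold changes in the Nalm6 comparison (25213 regions), and 47% and 100% in the comparison of the lines (13473 regions). The changed regions were drawn from those above the median strength. The simulation used an assumed spread and no limit of 400 fragments, so it does not show recovery for regions near that limit, such as ASNS. The solution recovered 100% of 20000 simulated pairs. The rule for regions most like ASNS asked for a peak in all 8 lists. ASNS has none in 2, so the rule was applied over the 6 lists that hold it. Alternatives included other centring, thresholds, overlap, a replicate block and left-out libraries.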

Additional observations from a re-analysis of the deposited data

How the results depend on the processing

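In Nalm6 the change at ASNS on the log2 scale was 0.42 and stayed past the threshold without centring, with library centring, with stricter q, with summits within 200 bp and with the saturation correction, at values of 0.35 to 1.27, the highest with that correction. It no longer passed after quantile normalization (0.093), without a trend (0.42) and without either asparaginase library. By fold enrichment over local background it reversed (-0.47). Local background was 10.1 and 10.3 times genome background with asparaginase, against 4.32 and 4.80 without. The cause of the reversal was not tested. Without single libraries the change was 0.34 to 0.49. The ratio of relative pileups was 1.58 to 1.87 without single libraries, 1.36 without division by genome background and 0.795 by fold enrichment. The replicate numbers are not stated to pair libraries, and deviations of same-numbered libraries correlated at 0.0332 over 25213 regions. With a replicate block the limma change was 0.42 (limma, adjusted p = 0.0475), and 3604 regions were called lower instead of 2179.

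Regions called higher with asparaginase in Nalm6 numbered 9762 without centring and 3617 at −log10 q of at least 10, against 5717. Regions called lower numbered 100 without centring, 4731 with library centring, 4742 after quantile normalization, 1027 by fold enrichment and 1106 at −log10 q of at least 10. Without single libraries they numbered 528 to 1553. Between the lines the call at ASNS held in all 11 alternatives that gave a value, at 1.46 to 5.56. Regions called higher in Nalm6 numbered 10232 without centring, 3242 after quantile normalization, 908 at −log10 q of at least 10 and 498 to 3473 without single libraries, against 2050. Regions called lower numbered 451, 911 and 1534 without centring, at −log10 q of at least 10 and without Nalm6 asparaginase replicate 2, against 3013. The causes of these shifts were not tested.

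The ranks by −log10 p were 3, 7, 24 and 10 in Nalm6 asparaginase 1 and 2 and untreated 1 and 2, and by summit pileup 45, 60, 78 and 75. In SUPB15 with asparaginase they were 29466 and 20995 by −log10 p, and 45806 and 28073 by summit pileup. SUPB15 with asparaginase had 2 and 1 peaks in the window, 1 and 0 at −log10 q of at least 5, and 0 and 0 at 10. The SUPB15 asparaginase lists sharing the promoter region were 1 at −log10 q of at least 5, and 0 at 10. With equally long lists they were 0. These 3 settings remove weaker peaks. With summits within 200 bp and by reciprocal overlap of 50% they were 1. There the positions differed, with summits 237 bp apart and an overlap of 30.0% and 45.0% of the peaks. The planned tests in SUPB15, over both lines and of the difference between changes gave no value, as untreated SUPB15 has no ASNS peak.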
